A study of Mus musculus with 6 samples.

Results

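Calcium-binding and calcium-sensor genes were described in the deep cerebellar nuclei of mice after eyeblink training. The 9 genes considered were Pvalb, Calb2, Calm2, Calm3, Pcp4, Vsnl1, Hpcal1, Ncald and Ncs1, and their probe sets were those whose platform annotation named only that gene. This gave 14 probe sets for 8 of the genes, among 29137 probe sets with a single symbol for 15950 genes. No probe set that named only Calm3 was among those analysed here. The tissue came from male C57BL/6 mice of 11 to 18 weeks, chiefly the anterior interpositus, the cerebellar nucleus through which a learned eyeblink is driven. Electrode wires had been implanted in the left eyelid, and after 3 days of recovery training ran for 7 days with tones lasting 352 ms and shocks around the eye lasting 100 ms. In the paired group the shock began 252 ms after tone onset and both ended together, whereas in the unpaired group tone and shock were given apart in pseudorandom order. Each group was 1 pool of 10 to 15 nuclei from the implanted side, taken with syringe needles within 10 to 30 min of sacrifice and measured once on each of 3 array designs, A, B and C. Both groups had surgery, tone and shock, and no group without training was analysed here.

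Calcium entering a neuron is met by proteins that bind it through a helix-loop-helix fold, the EF hand. Buffers such as parvalbumin (Pvalb) and calretinin (Calb2) mainly shape the size and time course of the signal. Sensors such as calmodulin and the neuronal calcium sensor family change shape on binding and pass the signal to enzymes and channels. In the cerebellum parvalbumin is known from Purkinje cells and molecular layer interneurons, among other cells, calretinin from granule and unipolar brush cells, and Pcp4 from Purkinje cells. Which cells of the pooled tissue gave the signals described here was not tested.

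There were 6 arrays, 1 per group and design, so differences could not be checked against replicates and carry no p-value, and the small number of arrays limits the precision. On design A the median log2 signal was 4.79 unpaired and 4.83 paired, design B had 4.32 in either pool, and design C had 3.03 unpaired and 3.02 paired. Log2 ratios are paired over unpaired, after a shift within each design of at most 0.010. Different probe sets of one gene gave a measure of probe error, which does not replace replicates. From such pairs the SD of a single log2 ratio was 0.19 within a design (2017 genes) and 0.21 between designs (2196 genes). Error that both probe sets of a pair share, such as that of the same arrays, cancels and is not covered. The spread between pools of mice is not covered either. Markers of deep nuclear neurons were bright, with the best probe set of Slc17a6, a vesicular glutamate transporter, at percentile 99.9 of its unpaired array and that of the neurofilament gene Nefm at 99.8. Lhx2, Lhx9, Meis2 and Tbr1 of that list had no probe set above the median signal of its design. Some markers of the overlying cortex were also bright, with Pcp2 of Purkinje cells at percentile 97.5 and Cbln1 of granule cells at 94.8. Stac of the Purkinje list and Cbln3, Neurod1 and Pax6 of the granule list had no probe set above the median signal of its design.

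The first question was how strongly each gene was detected. Pvalb was the brightest: probe set 96719_i_at read 12.53 (log2 signal, unpaired pool) and 12.46 (paired pool) and stood at position 1 of 12422 on both arrays of design A, control probe sets aside. Its other probe set on that design, 96720_f_at, read 8.33 and 8.08, and 168316_i_at on design C read 8.32 and 8.26. Brightness depends on the probes as well as on the transcript, as these unequal readings of one gene show, so positions describe probe sets and do not order the genes by abundance. The remaining signals were also mostly high: 12 of the 14 probe sets, from 7 genes, had a mean signal at or above the median of their design and were kept for ratios. The other two, the only Pcp4 probe set (162300_at, 2.52 and 2.62 on design A) and one of Vsnl1 (165438_r_at, 1.97 and 1.84 on design C), lay under the 25th percentile of their design.

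**Figure D1:**
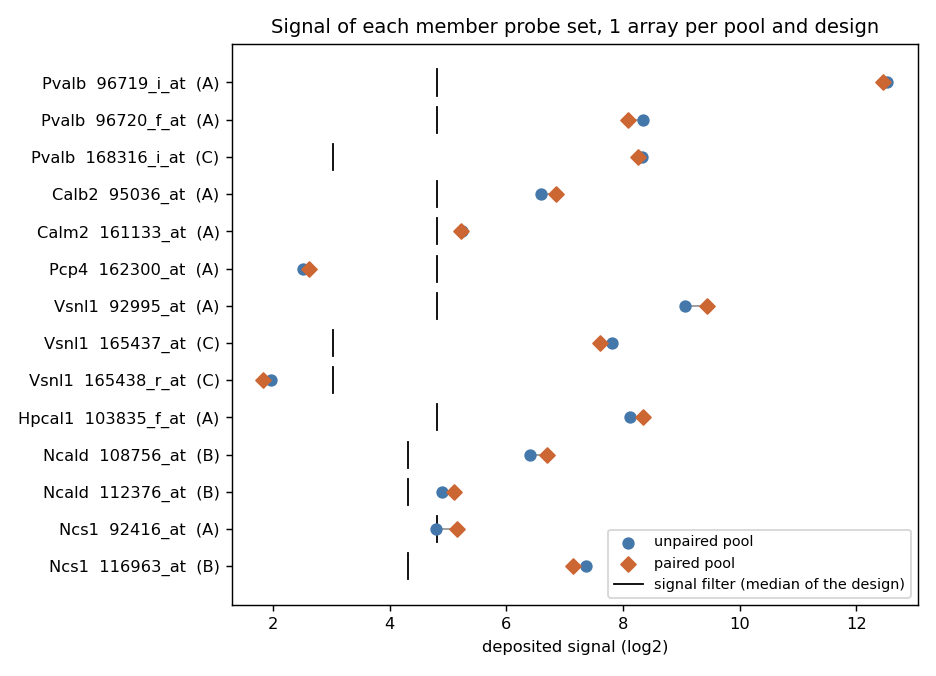
Deposited log2 signal (x axis) of each of the 14 member probe sets (rows, with the array design in brackets) in the unpaired (circles) and paired (diamonds) pool, 1 array each, with the median signal of the design as a vertical tick. The probe set 96719_i_at of Pvalb lies at 12.53 and 12.46, and the probe sets 162300_at of Pcp4 and 165438_r_at of Vsnl1 lie left of their ticks.

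Paired and unpaired pools were then compared. None of the 12 kept member probe sets was 1.5-fold apart, a size reached by 0.681% of all 18351 kept probe sets. By direction 6 were higher in the paired pool and 6 lower, where 50.0% of all kept probe sets were higher, a share the scaling sets. Counted by gene, the mean log2 ratio was above 0 for 5 of the 7 measured genes (49.0% of 10578 genes), with a median of 0.09 against -0.0039 over all genes. One of the 5, Ncs1, was above 0 through a probe set that passed the signal filter only because of its paired array. When both arrays had to pass, an alternative chosen after seeing the data, 4 of 7 genes were above 0. With the probe set of highest signal rank per gene 3 of 7 were, and the median was -0.0018. By design the median was 0.25 on A, 0.02 on B and -0.13 on C. The members' log2 ratios ran from -0.24 for a Pvalb probe set to 0.39 for one of Vsnl1. Each was also set against the 500 kept probe sets of its design nearest in signal, since ratios scatter more at low signal. The central 90% of those neighbours held 8 of the 12 member ratios, and the 4 outside it, all higher in the paired pool, belonged to Vsnl1, Hpcal1, Ncald and Calb2.

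**Figure D2:**
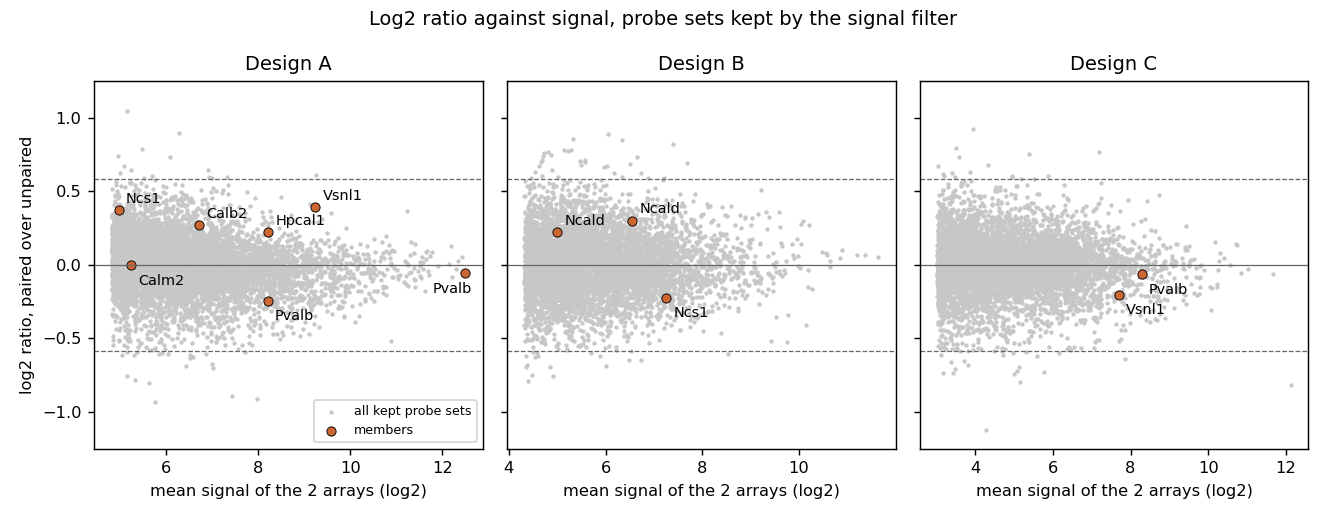
Log2 ratio, paired over unpaired (y axis), against the mean log2 signal of the 2 arrays (x axis) for all kept probe sets (grey) and the 12 member probe sets (orange, named) on designs A, B and C. Dashed lines mark 1.5-fold, which no member reaches, and Vsnl1 and Ncs1 each lie above 0 on design A and below 0 on another design.

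Among the buffers, Pvalb was lower in the paired pool on all 3 probe sets, by a little. The log2 ratios were -0.056 for 96719_i_at and -0.24 for 96720_f_at on design A and -0.060 for 168316_i_at on design C. Their mean was -0.12 ± 0.11 (SD over 3 probe sets), or 0.921-fold, at percentile 23.1 of all genes. Against neighbours of like signal the ratios stood at percentiles 43.8, 11.8 and 38.6, all within the central 90%. The 3 probe sets carry suffixes (i or f) that the array maker uses for incomplete or family-shared probes, and both on design A were designed from the same database sequence. They are therefore not 3 independent readings.

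Calb2 went the other way. Its one probe set, 95036_at on design A, read 6.59 unpaired and 6.86 paired. It moved from position 2777 to 2259 of 12422, a log2 ratio of 0.27 or 1.21-fold. That was percentile 95.1 of all genes and 95.6 of its neighbours, to be set against a probe error of 0.21 for a single reading. Granule cells contain calretinin, and on design A, where Calb2 was read, 3 of 4 measured markers of these cells were higher after paired training, the median log2 ratio being 0.18. Of all genes on design A alone 49.3% were higher. Over all designs 8 of 13 listed granule genes were measured and 7 were higher, where 49.0% of all genes were, with a median of 0.23. It was 0.05 on design B alone, 0.38 on design C alone and 0.12 when probe sets with several symbols were counted. Gabra6, a granule cell GABA receptor subunit, had 0.89, Cbln1 0.05 and Zic2 -0.02, all on design A, and the cadherin gene Fat2 had 0.47 on design C. The Gabra6 probe sets gave 0.73 and 1.04. The second, at 4.63 unpaired and 5.66 paired, passed the signal filter of 4.82 only because of its paired array. The summed linear signal of the granule probe sets was 731 unpaired and 852 paired on design A, 22.9 and 23.8 on design B, and 242 and 306 on design C. Cbln3, Neurod1 and Pax6 lay under the filter, and Grm4 and Etv1 were not analysed here. In pooled tissue more cells of a type and more RNA per cell cannot be told apart, and the part of the granule markers in the Calb2 ratio was not tested. None of the 5 listed unipolar brush cell genes was above the signal filter.

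Of the calmodulin genes, which encode the same protein, only Calm2 was measured. Probe set 161133_at on design A read 5.24 unpaired and 5.23 paired, a log2 ratio of -0.0018, at percentile 40.6 of its neighbours. Its position hardly differed, at 5331 and 5410 of 12422. This was the smallest difference of the 12 kept probe sets. The probe error of a single probe set was an SD of 0.21, and a difference smaller than that could not have been told from it. That SD is not a limit of detection, and without replicates a larger difference could not have been checked either.

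Pcp4 is a small protein that binds calmodulin and speeds its exchange of calcium. Both arrays were at or below the 25th percentile used as floor for its only single-gene probe set, so no ratio is given. A second probe set, 160899_at, is annotated to Igsf5 as well as Pcp4 and was not used for the gene. It was bright on design A, at 8.66 unpaired and 8.95 paired, with a log2 ratio of 0.30, and which of these transcripts it reads cannot be told apart here. Purkinje cells, for which Pcp4 is a marker, had 13 listed marker genes, of which 10 were measured. In the paired pool 7 were higher, where 49.0% of all genes were, with a median of 0.08. Stac lay under the filter. Shisa6 had 0.48 and Car8, a carbonic anhydrase-related protein abundant in these cells, 0.42, against -0.15 for the glutamate transporter gene Slc1a6 and -0.07 for Gng13. Summed Purkinje signal was 1065 and 1127 on design A, 24.0 and 21.9 on design B and 598 and 608 on design C, unpaired first. The median of this list lay at -0.14 on design B alone and 0.42 on design C alone.

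The 4 neuronal calcium sensors carry a fatty acid tail through which they bind membranes, in several of them only once calcium exposes it. Vsnl1, or visinin-like protein, had the most discordant readings of the whole group together with Ncs1. On design A, 92995_at read 9.05 unpaired and 9.43 paired, going from position 394 to 270 of 12422. Its log2 ratio of 0.39, or 1.31-fold, stood at percentile 99.4 of its neighbours. On design C, 165437_at read 7.81 and 7.60, a log2 ratio of -0.20 at percentile 15.0. Both were bright, at percentiles 96.8 and 97.9 of their unpaired arrays. The mean was 0.09 ± 0.42 (SD over 2 probe sets), and the difference between the probe sets, 0.59, was larger than in 95.1% of genes with probe sets on different designs.

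Ncs1, or frequenin, a sensor that acts on calcium channels and phosphoinositide kinase, showed the same split. On design A, 92416_at read 4.79 unpaired and 5.15 paired, a log2 ratio of 0.37 at percentile 94.4 of its neighbours. This probe set lay close to the signal filter of 4.82, and its unpaired signal was below it. On design B, 116963_at was brighter, at 7.37 and 7.14, with a log2 ratio of -0.22 at percentile 10.4. The mean over both was 0.07 ± 0.42 (SD over 2 probe sets), and their difference of 0.59 again exceeded that of 95.1% of such genes. With signals at or above the 75th percentile, or with both arrays above the filter, only the design B probe set remained, and Ncs1 then stood at -0.22. For neither Vsnl1 nor Ncs1 does the mean differ from 0 by more than the spread between its probe sets.

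Ncald, neurocalcin delta, was the one sensor whose probe sets, 2 in number, went the same way. On design B, 108756_at read 6.41 unpaired and 6.70 paired, a log2 ratio of 0.30. The second, 112376_at, read 4.89 and 5.11, a log2 ratio of 0.23. Both were higher in the paired pool, and they differed by 0.075, less than the median of 0.17 for pairs on one design. A shared sign is common, found in 52.2% of such pairs over all genes. The mean was 0.26 ± 0.053 (SD over 2 probe sets), or 1.20-fold, at percentile 94.6 of all genes. Their percentiles among neighbours were 95.8 and 83.8. Both probe sets were hybridised with the same 2 labelled samples on the same arrays, so they share any error of those.

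Hpcal1, a relative of hippocalcin, had a single probe set, 103835_f_at on design A, which read 8.12 unpaired and 8.33 paired. The log2 ratio was 0.22, or 1.17-fold, at percentile 97.0 of its neighbours and 92.1 of all genes. Its suffix marks probes that can be shared by a family of like sequences, so the reading may include related transcripts. Hpca, the hippocalcin gene, was picked after its values were seen and read 6.63 unpaired and 6.72 paired on design A, a log2 ratio of 0.10.

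**Figure D3:**
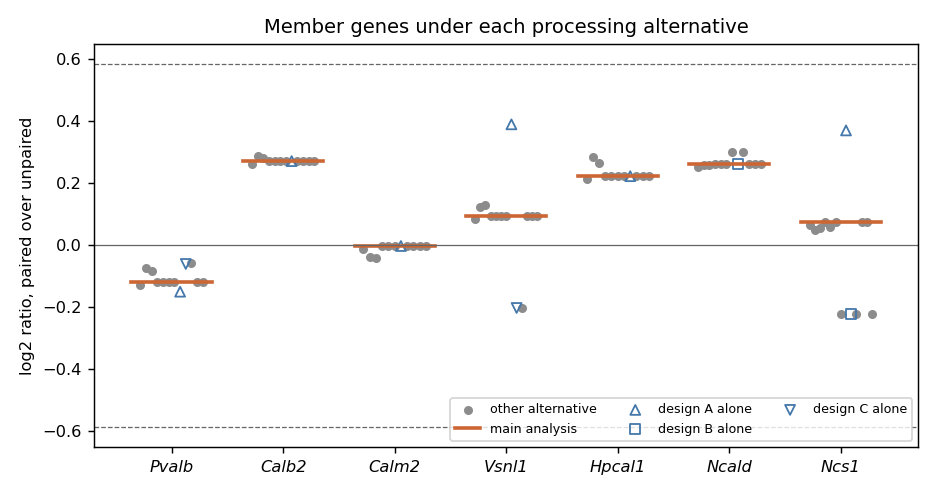
Log2 ratio, paired over unpaired (y axis), of the 7 measured member genes in the main analysis (orange line) and under each alternative (grey points, with each design alone as open symbols); dashed lines mark 1.5-fold. Calb2, Hpcal1 and Ncald stay above 0 and Pvalb below 0 in every alternative that gave a value, whereas Vsnl1 and Ncs1 lie on both sides.

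By design, 4 of 7 member probe sets were higher in the paired pool on A, 2 of 3 on B and 0 of 2 on C, where 50.0% of all kept probe sets were higher on each. The discordant pairs of Vsnl1 and Ncs1 both had their high reading on design A. Whether arrays A, B and C of a pool shared one RNA extract is not in the labels, and the part of the design in these ratios was not tested.

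The other genes of the calcium system were compared as lists, beside 49.0% of all genes higher in the paired pool. Of 41 other EF-hand buffers and sensors 29 were measured, 13 higher and 16 lower, with a median log2 ratio of -0.02. None reached 1.5-fold as a gene, where 0.388% of all 10578 genes did. Hpcal4, another visinin-like protein gene, was highest at 0.32, with 6.21 unpaired and 6.51 paired on design A, and its probe sets on designs B and C were under the signal filter. It was followed by Kcnip2, a potassium channel subunit of the same family, with 0.27. The lowest were S100b, an astrocyte protein, with -0.33 and Kcnip4 with -0.26. Calb1, the calbindin gene of Purkinje cells, was picked after its values were seen and had 0.09, with 5.62 and 5.70 on design A.

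Calmodulin-binding proteins and targets had 17 of 33 measured genes higher, of 40 listed, with a median of 0.0004. Adcy1, the calmodulin-stimulated adenylate cyclase, had 0.47 with both probe sets in one direction (0.35 on design B and 0.59 on design C, the second just past 1.5-fold). Over all genes 50.6% of pairs on different designs shared a direction. Camk2d, a calmodulin-dependent kinase, had 0.32, with probe sets at 0.09 on design B and 0.54 on design C. At the other end were Rcan1, an inhibitor of calcineurin, with -0.37 and the transcription factor gene Camta1 with -0.35, whose probe sets read 0.09 and -0.80. Genes of calcium export and stores had 30 listed genes, of which 21 were measured and 8 were higher (median -0.05). The plasma membrane pump genes Atp2b1 and Atp2b2 had 0.40 and 0.18. The other measured pump genes of that family, Atp2b3 and Atp2b4, were named after their values were seen and had -0.16 and -0.23. At the lower end Slc24a3, an exchanger gene, had -0.25 and Rcn2, a calcium-binding protein of the endoplasmic reticulum, -0.45. The probe sets of Atp2b1 gave 0.11 and 0.68 on the same design, and those of Atp2b2 gave 0.41 on design A and -0.04 on design C.

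**Figure D4:**
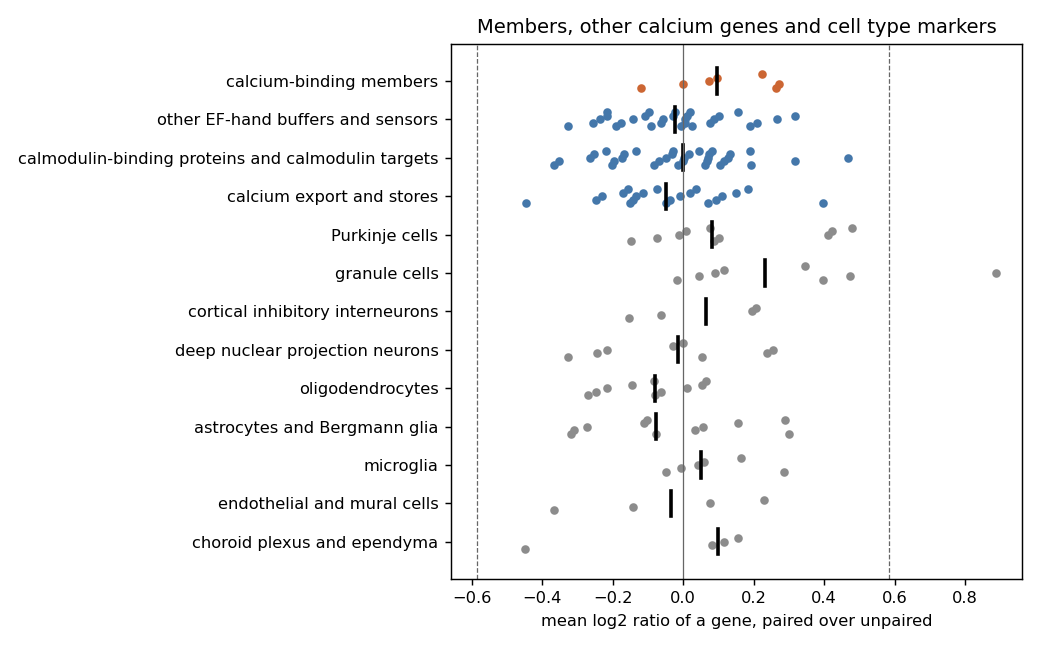
Mean log2 ratio of each measured gene, paired over unpaired (x axis), for the 7 members (orange), the 3 other calcium lists (blue) and the cell type marker lists (grey), with the list median as a black bar and 1.5-fold as dashed lines. The member median of 0.09 lies above those of the calcium lists (-0.02, 0.0004 and -0.05) with the designs pooled, and granule cell markers have a median of 0.23, which ran from 0.05 to 0.38 over the designs.

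The remaining cell type lists are given over all designs, beside 49.0% of all genes higher, and several depended on the design. Deep nuclear projection neurons had 3 of 8 genes higher (median -0.01), with Slc17a6 at 0.25, Vamp1 at 0.24, Irx3 at -0.33 and the neurofilament gene Nefh at -0.24. The Slc17a6 mean came from 1 probe set at 0.85 on design B, and those on design C, the bright one included, gave -0.08 and -0.0025. Likewise the Vamp1 probe sets gave 0.41 and 0.32 on design A and -0.02 on the brightest, on design B. Inhibitory interneurons of the cerebellar cortex, many of which contain parvalbumin, had 2 of 4 higher and a median of 0.06. Sst had 0.21, Nxph1 0.19, Kit -0.15 and Lgi2 -0.06. The Lgi2 probe sets, both on design C, gave -0.37 and 0.24. Oligodendrocyte markers had 3 of 10 higher and a median of -0.08, with Aspa at 0.06, Mag at 0.05, Sox10 at -0.27 and Gsn at -0.25, and stood at -0.51 on design C alone, which holds 1 of their genes. Astrocyte and Bergmann glia markers had 5 of 11 higher and a median of -0.08, with Aqp4 at 0.30, Slc1a3 at 0.29, Timp4 at -0.32 and Fabp7 at -0.31. Their median turned sign, with 0.16 on design B alone, -0.29 on design C alone and 0.02 with the probe set of highest signal rank. Microglia had 4 of 6 higher and a median of 0.05, with Cx3cr1 at 0.29, C1qc at 0.16, Tyrobp at -0.05 and C1qb at -0.0071. Endothelial and mural cells had 2 of 4 higher and a median of -0.03, with Pecam1 at 0.23, Rgs5 at 0.08, Cldn5 at -0.37 and Flt1 at -0.14, and turned from 0.08 on design A alone to -0.29 on design C alone. Choroid plexus and ependyma had 3 of 4 higher and a median of 0.10, with Clic6 at 0.16, Folr1 at 0.11, Foxj1 at 0.08 and Ttr at -0.45. The part of these lists in the member ratios was not tested.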

How the data were processed

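The authors deposited 1 signal per probe set and array, as 3 tables of 2 arrays. The deposited values were treated as log2 signals, and the base was taken from the values, which span 1.40 to 12.53 without controls. No source used here gives the summarization, background correction or normalization. Per the labels' protocols, biotin-labelled cRNA (15 ug) was made from total RNA. Titles carry a final letter (A, B or C) whose tables hold different probe sets, so the letters were taken for array designs, not replicates.

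After 198 control probe sets were set aside, 29137 probe sets had 1 gene symbol, 718 several and 6846 none. Of the single symbols, 29088 were matched to current names in the RefSeq table for GRCm38.p6. The paired array of each design was shifted to a median log2 ratio of 0 over the brighter probe sets (from the median signal up). The 25th percentile served as floor, and a probe set was kept if its mean signal reached the median of its design. A gene's value is the mean over its kept probe sets. With 1 array per group and design there is no test: differences were counted past 1.5-fold and set beside all kept probe sets, and the comparison with 500 probe sets of like signal was added after seeing the files. The steps were tested on simulated data.

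Alternatives changed the scaling (none, quantile, or loess with span 0.3), the floor (none, or the median), the filter (none, or the 75th percentile), the designs (each by itself) and the probe sets (the one of highest signal rank, those with several symbols added, suffixed ones left out). A filter passed on both arrays was added after seeing the data. Members and lists were chosen with earlier results of these data known. All 9 members are named; of each list the 2 highest and 2 lowest genes are named, and others only where said to be picked after their values were seen or to check the tissue. No gene of like pattern was sought, since 2 arrays per design give no measure of likeness. Python 3.11.15, numpy 2.4.6, pandas 2.3.3 and statsmodels 0.14.6 were used.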

Additional observations from a re-analysis of the deposited data

How the results depend on the processing

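Over 84 values of the 7 member genes under the alternatives, 8 moved by more than the probe SD of 0.21, all of Vsnl1 or Ncs1, and 6 of these had the other sign. Vsnl1 stood at 0.39 on design A alone and at -0.20 on design C alone and with the probe set of highest signal rank. Ncs1 stood at 0.37 on design A alone, and at -0.22 on design B alone, with the probe set of highest signal rank, with signals at or above the 75th percentile and, chosen after seeing the data, with both arrays past the signal filter. Of the kept member probe sets 2 were higher on design B alone and 0 on design C alone, which hold 3 and 2 of them. The median over the member genes was 0.25 on design A alone, 0.02 on B alone, -0.13 on C alone, 0.16 at the 75th percentile or with several-symbol probe sets, and -0.0018 with the probe set of highest signal rank. Of 166 list medians 14 had the other sign and 6 moved by more than 0.21, all 6 on design B or C alone. No member probe set passed 1.5-fold in any alternative run. The values of Pvalb, Calb2, Calm2, Hpcal1 and Ncald kept their sign in all of theirs, which for genes with 1 probe set tests only scaling. No paired analysis was possible because each group has 1 array per design. Low signal leaves Pcp4 without a ratio, and the causes of the moves were not tested beyond the probe sets each alternative leaves in.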
